A study of Homo sapiens with 4 samples.

Results

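The G1 switch of the human cell cycle was examined through 10 genes, taken by name: the kinase genes CDK4, CDK6 and CDK2, the cyclin genes CCND1, CCND2, CCND3, CCNE1 and CCNE2, the retinoblastoma gene RB1, and CDKN1B, which encodes the inhibitor p27. All 10 were found among the 60656 gene IDs of each library. The assay was TTchem-seq, which marks newly made RNA with a short pulse of 4-thiouridine so that it can be purified and sequenced, and the cells were HCT116, which derive from a human colorectal carcinoma. The DKO group (2 libraries, labelled as a TOP2A and TOP2B double knockout) came from cells named as TOP2A mAID (an auxin-inducible degron tag) with TOP2B -/-, and these cells received 500 µM auxin for 8 h to destroy the TOP2A protein. The WT group (2 libraries, genotype given as wildtype) has no auxin recorded. The protocol names the TOP2A degron line without the TOP2B deletion beside the double mutant, so whether the WT libraries carry the degron is not certain, and it is not stated whether the TOP2B-null line is a single clone. Loss of the enzymes, auxin and the difference between the lines therefore cannot be told apart. Cells of both groups were held in G1 by 28 h in 2 µM palbociclib, and the 4-thiouridine pulse was 30 min at 1 mM. In GRCh38 coordinates the genes are CDK4 (chr12:57747727-57752310), CDK6 (chr7:92604921-92836573), CDK2 (chr12:55966830-55972789), CCND1 (chr11:69641156-69654474), CCND2 (chr12:4273762-4305353), CCND3 (chr6:41934933-42050035), CCNE1 (chr19:29811991-29824312), CCNE2 (chr8:94880224-94896693), RB1 (chr13:48303751-48481890) and CDKN1B (chr12:12717368-12722369).

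In G1, D-type cyclins bind CDK4 or CDK6 and E-type cyclins bind CDK2, and these kinases phosphorylate the RB protein. RB without that phosphorylation holds E2F transcription factors in check and so delays S phase, and p27 restrains cyclin E with CDK2. Palbociclib blocks CDK4 and CDK6, the kinases encoded by members of this set, so every value below was measured with that step inhibited in both groups. In many cancer cell lines higher CDK6 or cyclin E expression has been linked to resistance to such inhibitors.

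Of the 10 genes, 9 had enough reads to test and 4 passed at an adjusted p under 0.05, 2 higher and 2 lower in DKO. CDKN1B rose by 44%, CDK6 rose by 24%, CCND1 fell by 20.8% and CDK4 fell by 15.7%. CDK2, CCND3, CCNE1, CCNE2 and RB1 did not pass, and CCND2 had no reads in any library. Among all 19103 tested genes 40.1% passed, 19.0% higher and 21.1% lower, so 4 of 9 is near that background and the count itself is no result about these genes. Their median log2 fold change was -0.05, against -0.01 over all tested genes, and their median absolute log2 fold change was 0.16, against 0.19. The DKO and WT libraries did not overlap in 7 of the 9, and in 12954 of all 19103 tested genes. Separation of the groups alone is therefore no result about these genes either. In libraries from whole cultures, fewer cells making a transcript and less transcript made per cell cannot be told apart.

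Promoter sequence (RefSeq, GRCh38.p14) was at hand for 3 of the 4 genes that passed, and the 250 bases before the start site are shown because these genes moved in different directions. Capitals mark matches on either strand to the E-box CACGTG, the CCAAT box, the E2F motif TTTNNCGC, the xenobiotic response element TNGCGTG and the FOXO motif GTAAACA. The CDK4 window is chr12:57752311-57752560 on the minus strand, the CDKN1B window is chr12:12717118-12717367 on the plus strand, and the CDK6 window, that of the more upstream of its 2 listed starts, is chr7:92836574-92836823 on the minus strand.
CDK4: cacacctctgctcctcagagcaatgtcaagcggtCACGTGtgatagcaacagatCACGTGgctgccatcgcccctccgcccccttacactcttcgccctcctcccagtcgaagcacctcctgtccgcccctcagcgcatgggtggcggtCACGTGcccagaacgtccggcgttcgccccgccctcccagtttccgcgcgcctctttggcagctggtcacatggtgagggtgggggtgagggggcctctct
CDKN1B: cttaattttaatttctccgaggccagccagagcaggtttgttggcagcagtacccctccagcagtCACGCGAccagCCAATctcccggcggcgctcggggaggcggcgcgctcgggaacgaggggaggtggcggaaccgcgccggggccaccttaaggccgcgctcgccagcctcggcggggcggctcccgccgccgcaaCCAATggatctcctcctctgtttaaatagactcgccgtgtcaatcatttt
CDK6: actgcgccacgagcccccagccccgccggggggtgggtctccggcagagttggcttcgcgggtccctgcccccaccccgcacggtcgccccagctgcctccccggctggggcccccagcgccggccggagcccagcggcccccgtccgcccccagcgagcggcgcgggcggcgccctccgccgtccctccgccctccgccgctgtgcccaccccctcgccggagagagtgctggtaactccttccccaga
The lowered gene CDK4 held 3 E-boxes, beginning 216, 196 and 101 bases before the start, and 6.34% of the 35116 listed promoters hold at least 1 in a window of this length. The raised gene CDKN1B held 2 CCAAT boxes, at 174 and 50 bases (32% of promoters), and 1 xenobiotic response element, at 185 bases (4.52%). CCND3, which did not pass, also held a CCAAT box at 64 bases before a listed start and at 136 bases before another. The raised gene CDK6 held no match to any of these motifs in either of its windows. No E2F motif (5.92% of promoters) and no FOXO motif (2.98%) was found in the 3 windows, and no E2F motif in those of CCNE1 and CCND3. GC boxes, GGGCGG, which overlapped none of the capitals and 42.6% of promoters hold, are left in lower case and numbered 3 for CDK4, 1 for CDKN1B and 3 for the CDK6 window shown. The annotated span of GPR19 reaches into the CDKN1B window, to 12717246, and covers the xenobiotic response element and the CCAAT box at 174 bases. That of CDK6-AS1 covers the whole CDK6 window shown. A match describes letters only, and no factor was measured at these sites.

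**Figure D1:**
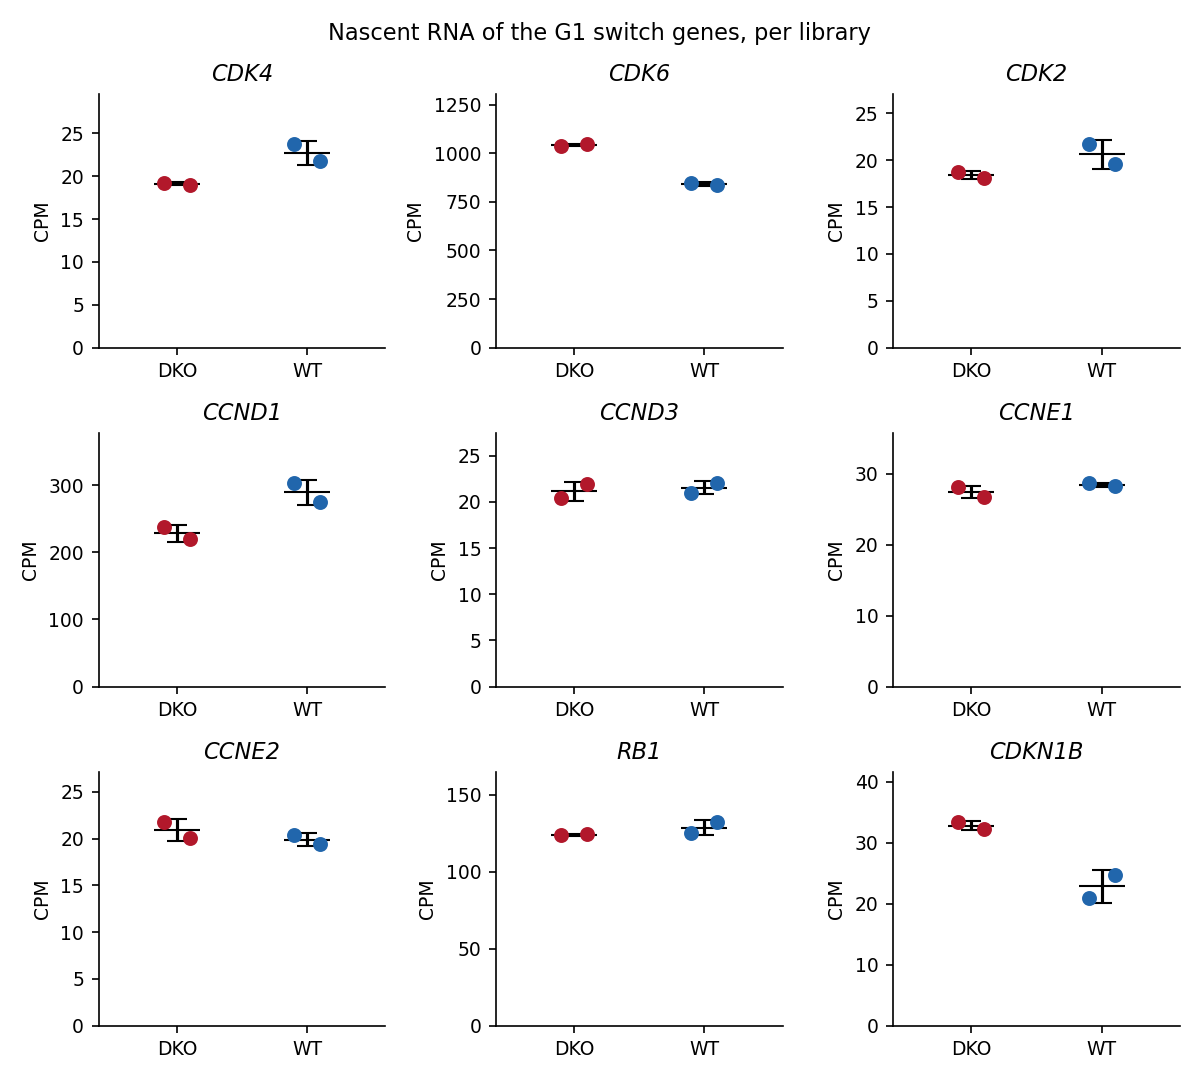
CPM (read counts scaled to a common library total) of the 9 detected genes in each library, DKO left and WT right in every panel, with dots for libraries and the line and bar for the mean and SD of 2 libraries. The DKO dots stand above both WT dots for CDKN1B and CDK6 and below both for CCND1, CDK4, CDK2, CCNE1 and RB1. Groups without overlap were common, with 12954 of all 19103 tested genes.

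CDK4 and CDK6, the palbociclib targets, differed in opposite directions. CDK6 stood at 1039 and 1046 CPM in the DKO libraries, against 849 and 836 CPM in the WT libraries. The groups were far apart compared with the replicates, which lay within a few percent of each other. The log2 fold change of DKO over WT was 0.31 ± 0.05 (standard error), with an adjusted p of 2.17e-07 by the quasi-likelihood test of edgeR, adjusted over all tested genes. CDK4 stood at 19.2 and 19 CPM in DKO, against 23.7 and 21.7 CPM in WT. Both DKO values lay below both WT values, and the WT pair differed more than the DKO pair. Its log2 fold change was -0.25 ± 0.07 (edgeR adjusted p = 0.00198). Without WT replicate 1 neither call held, with a CDK6 log2 fold change of 0.32 (edgeR adjusted p = 0.0504) and a CDK4 log2 fold change of -0.19 (edgeR adjusted p = 0.141). CDK4 also missed the threshold with no filter on low counts (-0.25, edgeR adjusted p = 0.0743).

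Taken as a ratio within each library, which library size cannot move, log2 CDK6 to CDK4 reads was 5.75 and 5.78 in DKO and 5.16 and 5.26 in WT. The DKO libraries stood above both WT libraries by a mean of 0.56. This ratio was chosen after the values were seen, and the exact two-sided permutation test over 6 splits gave its smallest possible p, 0.333.

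CDK2, the partner of the E-type cyclins, had 18.7 and 18.1 CPM in DKO, against 21.7 and 19.6 CPM in WT. The DKO values were the lower ones, but the WT libraries differed from each other by about as much as the group means did. It did not pass, with a log2 fold change of -0.16 ± 0.07 (edgeR adjusted p = 0.0604), and it stood at -0.09 without WT replicate 1 and at -0.23 without WT replicate 2.

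Among the D-type cyclins, which carry growth signals to CDK4 and CDK6, reads came almost wholly from CCND1. CCND1 had 237 and 219 CPM in DKO, against 302 and 275 CPM in WT. The higher DKO library was below the lower WT library. The log2 fold change was -0.34 ± 0.05 (edgeR adjusted p = 7.14e-10), and without WT replicate 1 it was -0.27 and missed the threshold (edgeR adjusted p = 0.0713). CCND3 had 20.4 and 21.9 CPM in DKO, against 21 and 22 CPM in WT, so the groups overlapped, and its log2 fold change was -0.02 ± 0.07 (edgeR adjusted p = 0.859). CCND2 had 0 counts in every library, which allows up to 3 counts, or 0.0558 to 0.0566 CPM in DKO and 0.058 to 0.0587 CPM in WT. LIN37, a subunit of a widely expressed repressor complex, also had 0 counts in all libraries, so a 0 in these files need not mean that a gene was silent. CCND2-AS1, a transcript that the annotation places over 2423 bases of the CCND2 span, had 2 and 3 counts in DKO and 1 and 4 counts in WT.

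CCND1 supplied 92.1% (95% exact interval 91.6% to 92.5%) and 90.9% (90.4% to 91.4%) of D-type cyclin reads in DKO, against 93.5% (93.1% to 93.9%) and 92.6% (92.2% to 93%) in WT. The rest was CCND3, and both DKO shares of CCND1 lay below both WT shares. The mean difference was -1.55 percentage points, and the exact two-sided permutation test gave 0.333, the smallest p that 6 splits allow. Adjusted over the 5 shares and ratios computed here, all of these p-values stayed at 0.333. The intervals cover counting error only.

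The E-type cyclins, which drive CDK2 late in G1, showed no difference past the test. CCNE1 had 28.1 and 26.8 CPM in DKO, against 28.7 and 28.3 CPM in WT. All 4 values lay close together, with the DKO values just below the WT values. Its log2 fold change was -0.05 ± 0.06 (edgeR adjusted p = 0.571). CCNE2 had 21.8 and 20.1 CPM in DKO, against 20.4 and 19.4 CPM in WT, and the groups overlapped. Its log2 fold change was 0.08 ± 0.07 (edgeR adjusted p = 0.401). The annotation places INTS8 over 1523 bases and NDUFAF6 over 895 bases of the CCNE2 span, and both have far more reads (135 and 141 CPM in DKO and 131 and 138 CPM in WT for INTS8), so reads in those stretches may be shared.

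RB1, the substrate of these kinases and the brake on E2F, had 124 and 124 CPM in DKO, against 125 and 132 CPM in WT. WT replicate 2 was the highest, and the other 3 libraries were nearly equal, with both DKO values just below both WT values. The log2 fold change was -0.05 ± 0.05 (edgeR adjusted p = 0.426). LPAR6, which the annotation places inside the RB1 span, had 11 and 16 counts in DKO and 11 and 12 counts in WT, far fewer than RB1.

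CDKN1B, whose product p27 binds and inhibits cyclin E with CDK2, had 33.3 and 32.2 CPM in DKO, against 20.9 and 24.7 CPM in WT. Both DKO libraries stood well above both WT libraries, and the WT pair was less even than the DKO pair. The log2 fold change was 0.53 ± 0.06, or 1.44-fold (edgeR adjusted p = 7.02e-13). It was the only member that passed in all 12 alternative fits, between 0.41 without WT replicate 1 and 0.65 without WT replicate 2. GPR19, whose span ends just before the CDKN1B start, had 104 and 108 counts in DKO, against 73 and 84 counts in WT, with a log2 fold change of 0.38 ± 0.17 (edgeR adjusted p = 0.0607), and it passed with upper quartile factors (0.42, edgeR adjusted p = 0.0404) and when only genes reaching 50 reads in 2 libraries were kept (0.39, edgeR adjusted p = 0.0414). Log2 CDKN1B to CDK2 reads was 0.83 and 0.83 in DKO and -0.05 and 0.34 in WT. Every DKO value was above every WT value, by a mean of 0.69, with an exact two-sided permutation p of 0.333, the smallest possible.

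**Figure D2:**
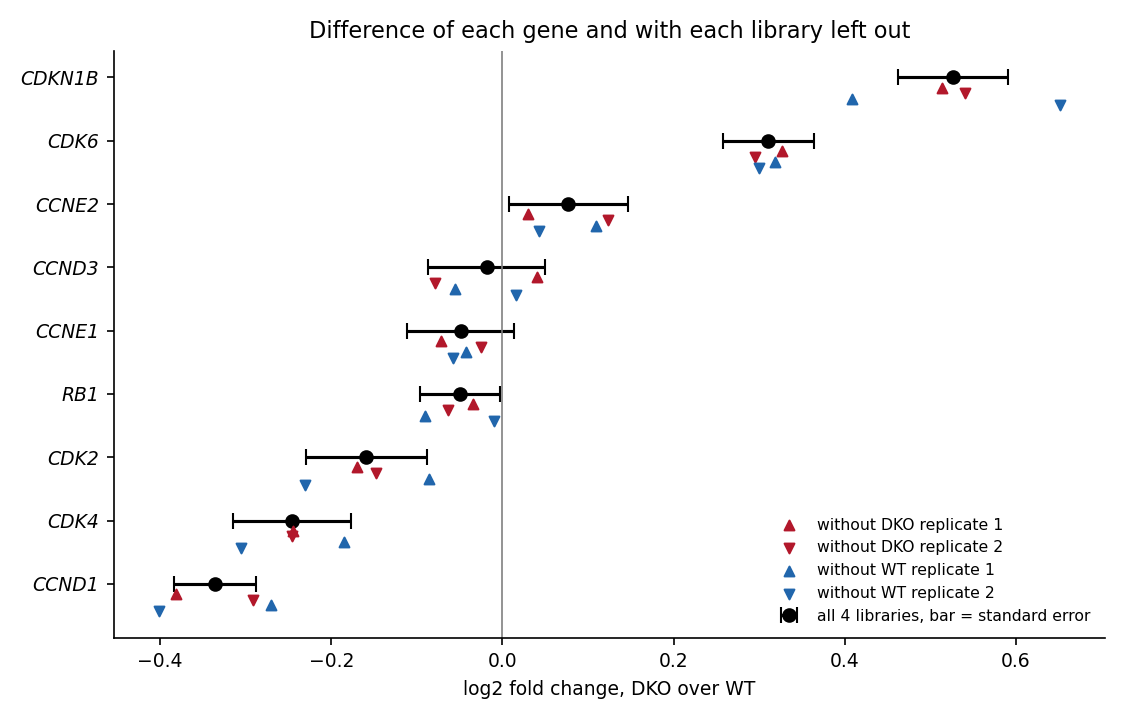
Log2 fold change of DKO over WT for each tested gene, with black dots and bars for the estimate and its standard error over 4 libraries and triangles for fits with 1 library left out. CDKN1B ranges from 0.41 to 0.65 and CCND1 from -0.40 to -0.27, while CCND3 crosses 0.

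Against the whole table these differences were moderate. The CDKN1B log2 fold change exceeded 90.2% of those of all tested genes, and that of CDK6 exceeded 82.2%. That of CCND1 exceeded 14% and that of CDK4 20.1%. For the 5 others this share ran from 28.6% for CDK2 to 62.2% for CCNE2.

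**Figure D3:**
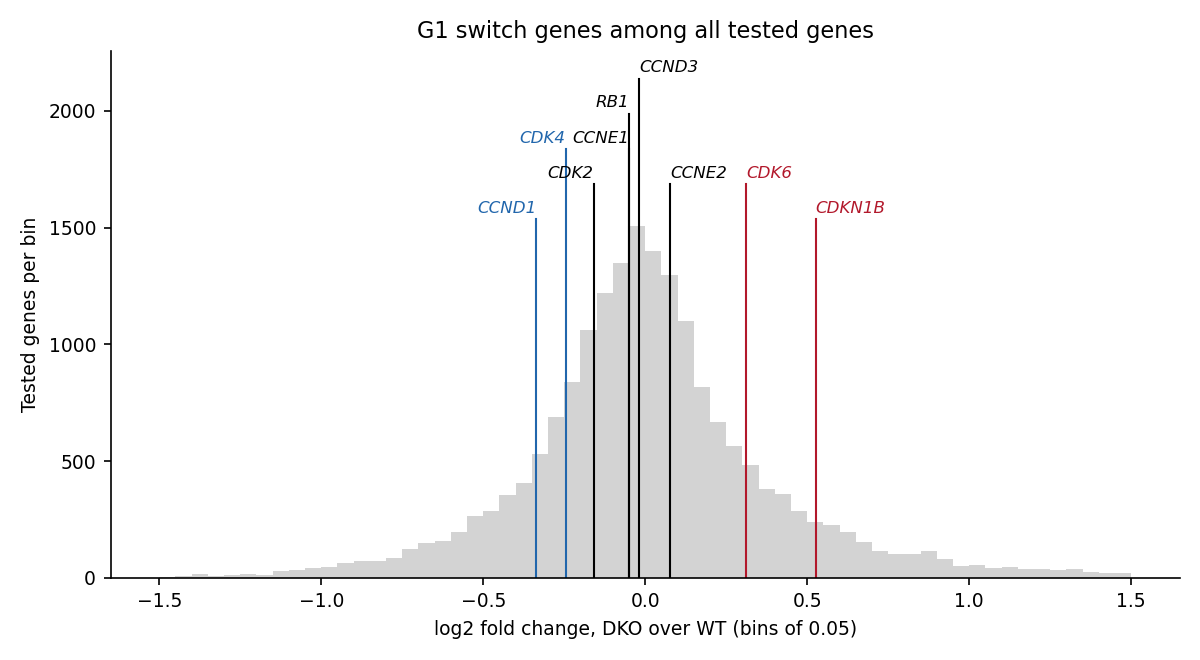
Histogram of log2 fold changes of DKO over WT for tested genes in bins of 0.05, with vertical lines for the members, red for those higher, blue for those lower and black for those not past the test. The axis ends at 1.5 in both directions and leaves out 357 genes, and all members lie well inside it.

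Levels can be compared between genes only per length, here as CPM per kb of annotated span. This order holds only if reads were counted over whole gene bodies, which is not stated, and with counts over exons it would not apply. CCND1 was the highest, with 17.1 ± 0.94 CPM per kb in DKO and 21.7 ± 1.4 CPM per kb in WT (SD, n = 2 each). In DKO the next levels were CDKN1B at 6.55, CDK6 at 4.5, CDK4 at 4.17, CDK2 at 3.09, CCNE1 at 2.23, CCNE2 at 1.27, RB1 at 0.696 and CCND3 at 0.184 CPM per kb, and libraries of neighbouring genes did not overlap. In WT the second place went to CDK4 at 4.96 CPM per kb, ahead of CDKN1B at 4.56 and CDK6 at 3.64. The WT libraries of CDK4 and CDKN1B overlapped, and so did those of CDK6 and CDK2, so neither order is fixed there, and from CDK2 down the order was that of DKO. The level of CCND3 depends on the span, 115 kb with its most upstream start, although another listed start lies near its 3' end. CDK6 spans 232 kb and had the most reads of the set, and on this scale it was close to CDK4, which spans 4.58 kb, a closeness that rests on the same condition.

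**Figure D4:**
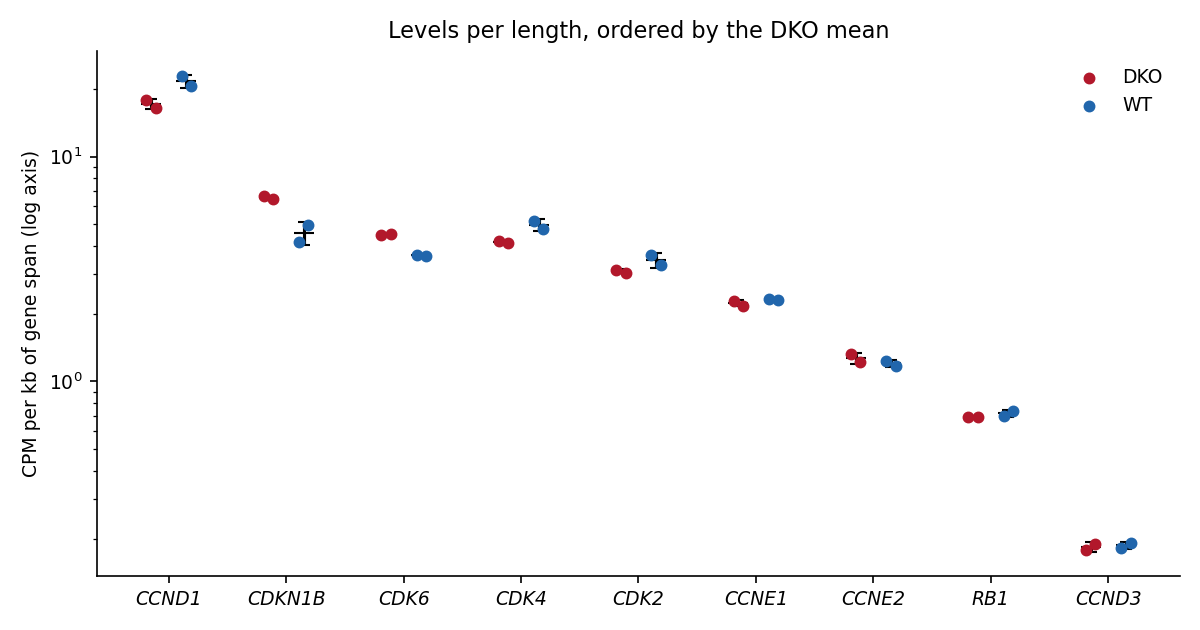
CPM per kb of gene span on a log axis, in the order of the DKO means, with dots for libraries (DKO left of WT) and lines and bars for the mean and SD of 2 libraries. CCND1 stands highest in both groups, and CDK6 and CDK4 change places between them.

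Position and span of the members were also described. CDK4, CDK2, CCND2 and CDKN1B lie on chromosome 12, whose tested protein-coding genes had a median log2 fold change of -0.01. Around CDKN1B, 4 of 11 tested protein-coding genes within 500 kb were called higher and none lower (median 0.17). Around CCND1, which fell, 3 of 4 such neighbours were called higher and 1 lower (median 0.28). Around CDK6 3 of 8 were higher and 1 lower (median 0.04), and around CDK4 2 of 23 were higher and 1 lower (median -0.02). Over all tested genes, of every type, 19.0% were higher and 21.1% lower. With so few neighbours, none of these counts is read as a result about a region. Protein-coding genes within 1.5-fold of the CDK6 span had a median of 0.07. Those within 1.5-fold of the spans of CDK4, CDKN1B and CCND1 had medians of -0.13, -0.11 and -0.09. The shares called were 54.2% for the CDK6 span and 43.3%, 42% and 43.6% for the others. Over all 13083 tested protein-coding genes the median was -0.03, and their share called was not computed. The 40.1% over all tested genes takes in other gene types, so it is no background for these shares. The annotation overlaps CDK4 with TSPAN31 by 2493 bases. TSPAN31 had 218 and 204 counts in DKO and 205 and 180 counts in WT (log2 fold change 0.08, edgeR adjusted p = 0.634). CDK6-AS1, which shares 91 bases with CDK6, had 142 and 147 counts in DKO and 155 and 142 counts in WT, far fewer than CDK6.

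By the distance between centred log2 CPM over the 4 libraries, the well-transcribed protein-coding genes most like CDKN1B included SSUH2 (0.079) and ARRDC4 (0.08), and those most like CCND1 were MRNIP (0.01), ZNF408 (0.018) and GOLGA2 (0.021). Of 9093 candidates, 241 came within 0.1 of CCND1. With 4 libraries this describes a pattern and nothing more.

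The rest of the pathway was followed in 9 lists of 72 genes, of which 70 were tested. There 13 rose and 18 fell, with a median log2 fold change of -0.03, a share near the 40.1% called over all tested genes. The counts of the single lists below stand against 19.0% higher and 21.1% lower over all tested genes, and with so few genes a list none of them is read as a result about its list. All 5 of these genes on chromosome 20 fell, namely RBL1, E2F1, MYBL2, CDC25B and CABLES2. The 358 tested protein-coding genes of that chromosome had a median log2 fold change of -0.62, and the part of that shift in these 5 falls was not tested. On the other chromosomes 13 rose and 13 fell of 65 tested (median -0.01). Of 27 list genes named here by rule, 17 lost their call without WT replicate 1 and 16 of them also without WT replicate 2, and 11 with no filter on low counts, with adjusted p over all lost calls between 0.0501 and 0.419. The 10 that passed in all 12 alternative fits were CDKN1A, RBL1, E2F1, E2F5, TFDP1, MYBL2, CDC25B, CDC25C, CCNB2 and CABLES2.

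Of the 6 other CDK inhibitors, 1 rose and none fell. CDKN1A, the gene of p21, a relative of p27, had 44.1 and 42.4 CPM in DKO, against 31 and 29 CPM in WT. Both DKO libraries stood above both WT libraries, with a log2 fold change of 0.53 ± 0.06 (edgeR adjusted p = 1.94e-15), close in size to CDKN1B. The INK4 genes, whose products bind CDK4 and CDK6, did not pass. CDKN2A had 3017 and 2975 counts in DKO and 2680 and 2753 counts in WT (log2 fold change 0.09, edgeR adjusted p = 0.16), and CDKN2B, CDKN2C and CDKN2D had at most 117 counts a library. CDKN1C (p57) had 18 and 24 counts in DKO and 12 and 17 counts in WT.

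Of 12 RB relatives, E2F factors and their DP partners, 3 rose and 6 fell, beside 19.0% and 21.1% of all tested genes. RBL1, the gene of the RB relative p107, had 83.7 and 81.5 CPM in DKO, against 142 and 148 CPM in WT (log2 fold change -0.81 ± 0.05, edgeR adjusted p = 1.2e-38). E2F1, an activating E2F, had 18.7 and 19.2 CPM in DKO, against 33.7 and 31 CPM in WT (-0.77 ± 0.07, edgeR adjusted p = 9.35e-23). In both genes the DKO libraries lay far below the WT libraries, and both lie on chromosome 20. TFDP1, the main E2F partner, on chromosome 13 like RB1, was also lower (-0.34 ± 0.05, edgeR adjusted p = 1.87e-09). E2F5, a repressing E2F, was higher (0.33 ± 0.06, edgeR adjusted p = 2.56e-07), as were E2F7 (0.23) and RBL2, the gene of p130 (0.21). E2F2 (-0.27), E2F4 (-0.33) and E2F8 (-0.17, edgeR adjusted p = 0.0492) were the other falls, and E2F3, E2F6 and TFDP2 did not pass. The E2F8 call was lost in all 12 alternative fits, that of E2F2 without WT replicate 1, and that of E2F4 without WT replicate 1 and with no filter. Log2 RB1 to E2F1 reads was 2.73 and 2.7 in DKO, against 1.89 and 2.09 in WT. The mean difference was 0.72, with E2F1 and not RB1 the gene that passed, and the exact two-sided permutation p was 0.333, the smallest possible.

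Among 7 tested subunits and partners of the MuvB and DREAM complexes, which repress cell cycle genes in resting cells or activate them later, 3 fell and none rose. MYBL2, the gene of the activator B-MYB, lies on chromosome 20 and fell most. It had 81.2 and 81.5 CPM in DKO, against 134 and 136 CPM in WT (log2 fold change -0.73 ± 0.05, edgeR adjusted p = 7.61e-34). LIN52 (-0.24) and RBBP4 (-0.13) were the other falls, and RBBP4 was also lost with upper quartile factors (-0.09, edgeR adjusted p = 0.129).

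Of 8 genes that switch CDKs on or off by phosphorylation, 1 rose and 3 fell. CDC25C, a phosphatase gene of mitotic entry, had 16.4 and 17.6 CPM in DKO, against 8.1 and 8.51 CPM in WT, a 2.05-fold rise (log2 fold change 1.04 ± 0.08, edgeR adjusted p = 1.67e-24). CDC25B, on chromosome 20, had 24.8 and 25.1 CPM in DKO, against 40.5 and 35.7 CPM in WT (-0.61 ± 0.06, edgeR adjusted p = 1.82e-17). CDC25C and CDC25B thus stood on opposite sides, while CDC25A, which acts on CDK2, did not pass (-0.10, edgeR adjusted p = 0.1). The groups did not overlap in any of these CDC25 genes, nor in 12954 of all 19103 tested genes. PKMYT1 (-0.27) and CDK7 (-0.23), the catalytic subunit of the CDK-activating kinase, were the other falls. Without WT replicate 1 PKMYT1 was at -0.14 (edgeR adjusted p = 0.419) and without DKO replicate 1 at -0.17 (edgeR adjusted p = 0.139).

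Of 13 genes that turn over cyclins and p27, 3 rose and 2 fell. SKP2, whose product marks p27 for destruction, was lower (log2 fold change -0.24 ± 0.05, edgeR adjusted p = 2.46e-05), and its cofactor gene CKS1B was higher (0.34 ± 0.06, edgeR adjusted p = 3.95e-06), as were CKS2 (0.23) and USP28 (0.15). USP28 was at 0.09 without WT replicate 1 (edgeR adjusted p = 0.399) and at 0.09 without DKO replicate 2 (edgeR adjusted p = 0.213). CUL4A (-0.15) was the other fall. AMBRA1 (-0.07), which directs D-type cyclins to destruction, and FBXW7 (0.07), which does so for cyclin E, did not pass.

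Of the S phase and mitotic cyclins and CDK1, 4 of 5 rose and none fell, beside 19.0% higher over all tested genes, namely CCNB2 (log2 fold change 0.38 ± 0.06, edgeR adjusted p = 1.79e-07), CCNB1 (0.24), CDK1 (0.19) and CCNF (0.14, edgeR adjusted p = 0.0494), while CCNA2 (0.07) did not pass. The CCNF call was lost in 9 of 12 alternative fits. Their summed level was 277 and 260 CPM in DKO, against 232 and 239 CPM in WT. This level moved with the group, and its part in the differences of the G1 genes was not tested.

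Of 6 tested genes of the anaphase-promoting complex and its regulators, only FBXO5, the gene of its inhibitor EMI1, passed, as a fall (-0.16), and without DKO replicate 2 it was at -0.10 (edgeR adjusted p = 0.156). Of 9 partners and substrates of CDK2, 3 fell and none rose, a count near the 40.1% called over all tested genes. These were CABLES2 (-0.86), which lies on chromosome 20, CDT1 (-0.30), a replication licensing factor, and CABLES1 (-0.18). NPAT, a cyclin E and CDK2 substrate that switches on histone genes, did not pass (-0.06). Among 4 transcription factors linked to CDKN1B, only FOXO1 passed, as a rise (0.28 ± 0.05, edgeR adjusted p = 1.96e-06), and FOXO3 did not (0.08).

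**Figure D5:**
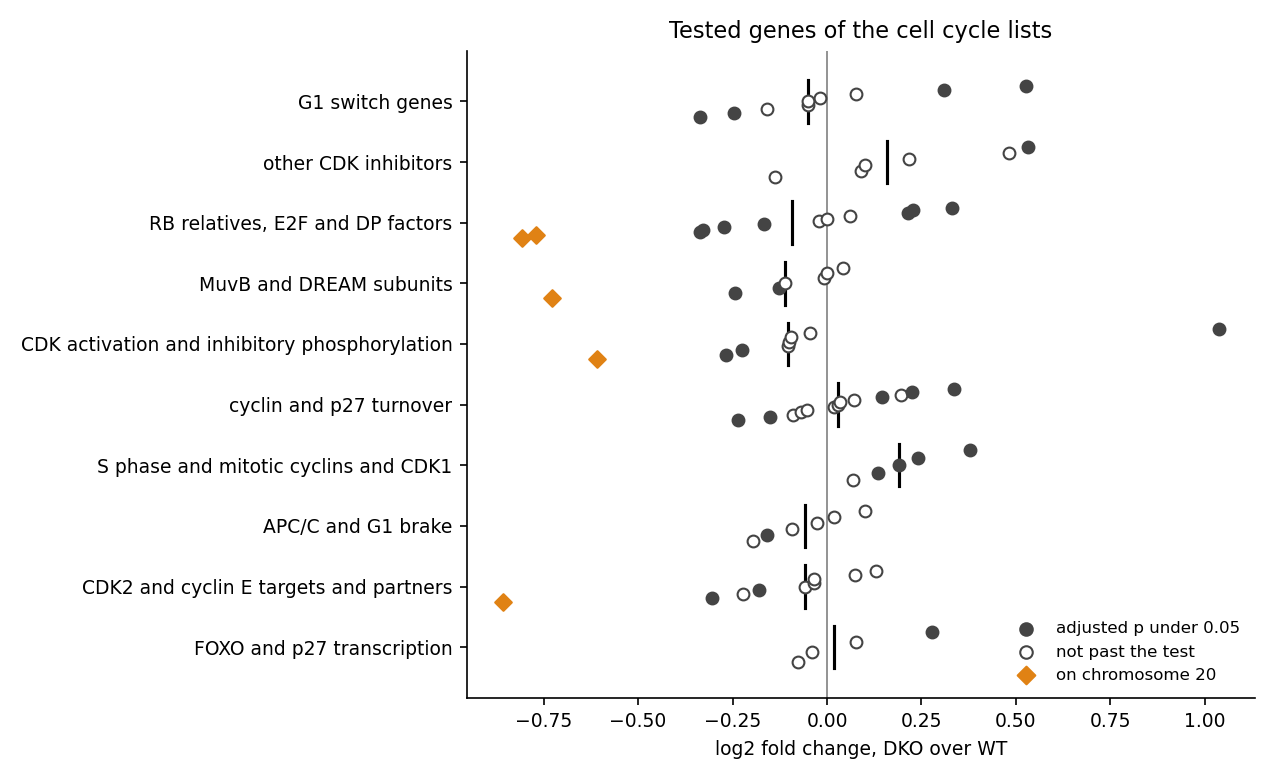
Log2 fold change of DKO over WT for each tested gene by list, filled where the adjusted p is under 0.05, orange diamonds for chromosome 20, and a black line for the list's median. The 5 chromosome 20 genes lie between -0.86 and -0.61, and CDC25C is the point farthest to the right at 1.04.

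Libraries held 51142867 to 53777749 counted reads, and replicates correlated at 0.997 in both groups on log2 CPM. TOP2B had 7852 and 8000 counts in DKO and 7264 and 7303 counts in WT, so its RNA does not check the deletion, and TOP2A, targeted as protein, had 8770 and 8955 counts in DKO and 6519 and 6246 counts in WT. Of 8 colorectal epithelial markers 7 were detected, CLDN7 among them at only 70 to 109 counts a library, while VIL1 was near 0. The summed level of the 8 was 446 and 426 CPM in DKO, against 504 and 469 CPM in WT, with 4 called lower. Over all tested genes 19.0% were higher and 21.1% lower, and these shares also stand beside the marker calls that follow. The 7 neuronal markers summed to 523 and 589 CPM in DKO, against 133 and 136 CPM in WT, but SYT1 alone gave 515 and 581 CPM in DKO and 132 and 135 CPM in WT. NCAM1 and SNAP25 were also called higher, at under 5 CPM in every library, TUBB3 did not pass (-0.13), and ELAVL3, ELAVL4 and STMN2 were near 0. The 8 mesenchymal markers summed to 102 and 110 CPM in DKO, against 55 and 55.9 CPM in WT, of which ZEB1 alone gave 91.9 and 99.1 CPM in DKO and 50.2 and 50.9 CPM in WT. TWIST1 and SNAI2 were also called higher, COL1A1 (-0.14) and FN1 (0.29) did not pass, COL1A2 was at 0 and VIM and PDGFRB near 0. The 6 immune markers summed to under 0.2 CPM in every library. These levels moved with the group, and their part in the results above was not tested.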

How the data were processed

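The authors deposited 1 file per library with whole-number counts for each Ensembl gene, not normalized. The submitters' processing notes list STAR 2.7.3a, featureCounts 1.6 and hg38, with no roles. The library kit was stranded, per the labels' protocols. The sources used here do not give the gene set version, the strand setting or whether exons or gene bodies were counted. Reads of overlapping or antisense genes therefore cannot be told apart. All values are shares of a library, with no spike-in applied. Symbols were found for 42020 of 60656 IDs, and spans come from RefSeq (GRCh38.p14). Libraries were grouped by title.

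CPM was each count over its library total. All 19103 genes passing filterByExpr (minimum count 10, minimum total 15) were tested with edgeR 4.0.16 (R 4.3.3), its quasi-likelihood test, TMM factors and Benjamini-Hochberg adjustment. Standard errors are the absolute log2 fold change over the square root of F. The test was also run on counts simulated with the same spread for every gene. There 84% of 1.25-fold changes were recovered and 13 of 18610 unchanged genes were called. Real genes differ in spread, so this does not give error rates for these libraries. Separate cultures are not stated for the replicates, so p-values measure only the spread between libraries, which may be technical.

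Named were all members, annotated genes over or next to them, up to 3 called genes with the largest change per list and direction, and the 3 genes nearest in pattern to the members that rose and fell most, of which 1 is not reported here. CCNF, E2F2, E2F4 and E2F8 and members of lists that did not pass were named after their values were seen. Members and lists were chosen with earlier results of these data known. Alternatives were other scaling (DESeq2 size factors, total counts, upper quartile), no filter, at least 50 reads in 2 libraries, DESeq2 1.42.0, limma 3.58.1 voom, a replicate block, and each library left out, when the remaining library of that group is taken to vary as the intact group does. The CDK6 to CDK4 ratio, the counts without chromosome 20 and the alternatives for CCNF, E2F2, E2F4 and E2F8 were added after the values were seen. Levels per kb of exon are not analysed here. Figures used matplotlib 3.10.9.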

Additional observations from a re-analysis of the deposited data

How the results depend on the processing

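The CDKN1B rise passed under every alternative run, and CDK2, CCND3, CCNE1, CCNE2 and RB1 passed under none. With no filter on low counts 1 member was lower, since CDK4 (-0.25) was no longer called, and over all genes 1640 were higher and 1655 lower. The DESeq2 Wald test called 2524 genes lower. Leaving out 1 library at a time gave 1 to 2 members higher and 0 to 2 lower, with log2 fold changes of -0.31 to -0.19 for CDK4, 0.30 to 0.33 for CDK6 and -0.40 to -0.27 for CCND1, and 1023 to 3127 genes higher and 928 to 3443 lower over the table. The fewest calls, over the table and among the members, came without WT replicate 1. There the log2 fold changes were -0.19 for CDK4, 0.32 for CDK6 and -0.27 for CCND1. Why the calls were lost there was not tested. Counted per kb of span, the CCND1 share of D-type cyclin reads differed by -0.207 and that of CCND3 by 0.207 percentage points, since CCND3 has the longer span. The cause of the other differences was not tested. CCND3 turned to 0.02 with upper quartile factors and was called under no setting. Libraries with the same replicate number did not deviate together (r = 0.011), so the numbers are not taken as pairs, and a replicate block left 2 members higher and 2 lower, with 3742 genes higher and 4078 lower. No spike-in bears on total transcription, and 2 libraries per group limit all tests.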
